A study of Mus musculus with 3 samples.

Results

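The 1204 regions described here are open chromatin regions of hair follicle stem cells (HFSCs) that lay close together, away from gene starts, in 351 dense stretches of the mouse genome. They were chosen by position and by peak presence alone. Peaks of 3 ATAC-seq libraries that shared a base were merged on chromosomes 1 to 19, which gave 149028 merged regions, and 19078 of these held a peak of every library. Of those shared regions, 10911 had their centre more than 1500 bases from every protein-coding start site and were called distal, and the other 8167 lay near a start site. Distal regions with gaps of up to 12.5 kb were joined, and a joined stretch of 3 or more regions was kept. The members made up 11.03% of the shared distal regions (95% Wilson interval, 10.5 to 11.6%), and the 9707 shared distal regions outside the stretches served as the comparison.

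Open chromatin was mapped with Omni-ATAC-seq. The transposase Tn5 cuts DNA where it is open and leaves sequencing adapters at the cut. The cells were sorted as CD34+CD49f+Sca-1- from dorsal skin of 6-month-old mice in telogen, when hair growth rests. The Msx2-KO group, with 2 libraries, carried a germline Msx2 null allele in which a neo selection cassette had been placed upstream of exon 2, so that every cell of the animal lacked the homeobox factor and not the stem cells alone. The Msx2-WT group had 1 library, from C57BL/6J mice at the same stage of the hair cycle, and no treatment was given to either group. The sample labels give a batch, as a date, that differs between the Msx2-WT library and both Msx2-KO libraries, and the effects of genotype and batch cannot be told apart. With 1 Msx2-WT library, no difference between genotypes was tested. The 3 libraries are called WT, KO1 and KO2 below, after their group and replicate number. Whether a library came from 1 animal or from pooled animals was not stated. The deposited peak names of the Msx2-KO libraries contained the letters cKO, and those of KO1 carried a library number of 13 in place of the 14 in its label. The groups below follow the sample labels.

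Enhancers are distal stretches of DNA that bind transcription factors and raise the transcription of a gene, at times over long distances. Dense clusters of enhancers with very high loading of coactivators and of acetylated histone H3 are known as super-enhancers. They lie beside genes that define a cell type, and in HFSCs such clusters are known beside stem cell transcription factors. ATAC-seq measures whether the DNA is open and not which proteins or histone marks sit on it, so the stretches here are candidate super-enhancers by spacing only. The gene beside a stretch was the one with the protein-coding start site nearest to the centre of the stretch. Being nearest does not show that the gene is a target.

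Windows of 100 bases to each side of the summit of the strongest member of 6 stretches are given first, because the results below turn on what these stretches contain. All are the plus strand of GRCm38, taken from RefSeq. Capitals mark words of the 12 short motifs that were searched. Those that occurred in these windows were the AP-1 word TGANTCA, which the leucine zipper factors Fos and Jun bind, the RUNX word TGTGGTT, the SOX word ACAATG, which Sox9 and its relatives bind, and the KLF word GGGNGTGG of the Krüppel-like zinc finger factors. Both strands were searched, so that AACCACA is a RUNX word read on the minus strand. The Ezh2 and Eapp windows show DNA that recurs within the stretch, the Il20rb window comes from a stretch of 7 members without such copies, and the Sox9, Zbtb16 and Col17a1 windows come from stretches beside stem cell and bulge genes.
Ezh2, chr6:47685392-47685592: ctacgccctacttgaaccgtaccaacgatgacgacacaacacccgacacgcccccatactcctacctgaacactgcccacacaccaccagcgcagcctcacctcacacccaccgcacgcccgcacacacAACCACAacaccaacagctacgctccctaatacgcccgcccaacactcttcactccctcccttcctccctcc
Eapp, chr12:54738503-54738703: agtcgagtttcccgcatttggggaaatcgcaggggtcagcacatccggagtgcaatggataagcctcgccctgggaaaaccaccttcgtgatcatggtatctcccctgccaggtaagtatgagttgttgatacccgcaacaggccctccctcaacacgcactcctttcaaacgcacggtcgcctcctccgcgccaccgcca
Il20rb, chr9:100466808-100467008: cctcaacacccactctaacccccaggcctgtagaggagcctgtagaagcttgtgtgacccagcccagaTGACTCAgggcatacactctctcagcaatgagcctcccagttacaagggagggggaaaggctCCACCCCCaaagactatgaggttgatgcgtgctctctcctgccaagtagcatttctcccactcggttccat
Sox9, chr11:112924630-112924830: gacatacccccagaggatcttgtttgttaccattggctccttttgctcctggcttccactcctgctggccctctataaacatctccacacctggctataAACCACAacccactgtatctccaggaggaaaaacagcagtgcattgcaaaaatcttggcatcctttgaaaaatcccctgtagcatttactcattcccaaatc
Zbtb16, chr9:48745182-48745382: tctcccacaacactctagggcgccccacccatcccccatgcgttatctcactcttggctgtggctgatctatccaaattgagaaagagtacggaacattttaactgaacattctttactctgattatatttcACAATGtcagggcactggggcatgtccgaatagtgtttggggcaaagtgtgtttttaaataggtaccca
Col17a1, chr19:47698395-47698595: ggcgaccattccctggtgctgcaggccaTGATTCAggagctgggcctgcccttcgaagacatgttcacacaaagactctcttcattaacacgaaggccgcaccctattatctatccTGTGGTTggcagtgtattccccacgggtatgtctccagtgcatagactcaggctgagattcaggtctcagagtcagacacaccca
The Il20rb window held an AP-1 and a KLF word, and the Col17a1 window held an AP-1 and a RUNX word. The Sox9 window held a RUNX word, as did the Ezh2 window, and the Zbtb16 window held a SOX word. No searched word was present in the Eapp window. A match describes the letters and not a bound factor.

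The peak lists differed in depth. They held 104386 summits in WT, 36508 in KO1 and 83322 in KO2, and the share of summits with a q-value under 0.01 was 32.2%, 53.3% and 49.3% in the same order. The height of a peak is given as its tag number, the count of extended reads piled up at the summit, which was recovered from the deposited statistics as a whole number for at least 99.96% of summits. For ratios, each tag number was divided by the library's median over all shared regions, which was 18, 9 and 19 tags in the same order, and the result is called scaled tags. Of 10 HFSC marker genes, 9 had a shared region at their start site, the exception being Cd34, the surface protein used in the sort. The same was so of 2 of 6 melanocyte markers (Dct and Pmel), 1 of 8 fibroblast and endothelial markers (Pdgfra) and 0 of 6 leukocyte markers. In the longer lists used below, it was so of 3 of 12 fibroblast and endothelial genes (Pdgfra, Col1a2 and Tek). There, 2 of 9 melanocyte and 0 of 10 leukocyte genes had such a region. The part of such cells in the results was not tested. In these bulk libraries, fewer cells with an open site and less opening per cell cannot be told apart.

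Most stretches were small. Of the 351 stretches, 254 held 3 members, 64 held 4, 22 held 5 and 11 held 6 or more, and the largest held 11. Their length ran from 4807 to 54190 bases with a median of 18109, and together they spanned 6.75 Mb, of which the members covered 1.35 Mb. The median gap between members was 6128 bases. The largest gap that was joined measured 12491 bases and the smallest that was not joined 12503 bases, and the member nearest to a start site lay 1506 bases from it, against 1499 bases for the farthest shared region left out as near a start site. Below the limit of 3 members there were 1167 pairs of shared distal regions, and 7373 regions were alone. Each autosome carried 11 to 27 stretches, and all 1204 members had a tag number in every library. The count of stretches moved with the settings, to 87 with peaks at a q-value under 0.01 and to 1110 when KO1 was left out. It was 611 without WT and 426 without KO2. Leaving out a library also eased the rule, since fewer lists had to hold a peak. The part of depth was not tested. The stretch centre lay at a median of 42259 bases from the nearest start site, 272 of the 351 stretches lay within 100000 bases of one, and 189 (53.8%) overlapped a protein-coding gene.

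**Figure D1:**
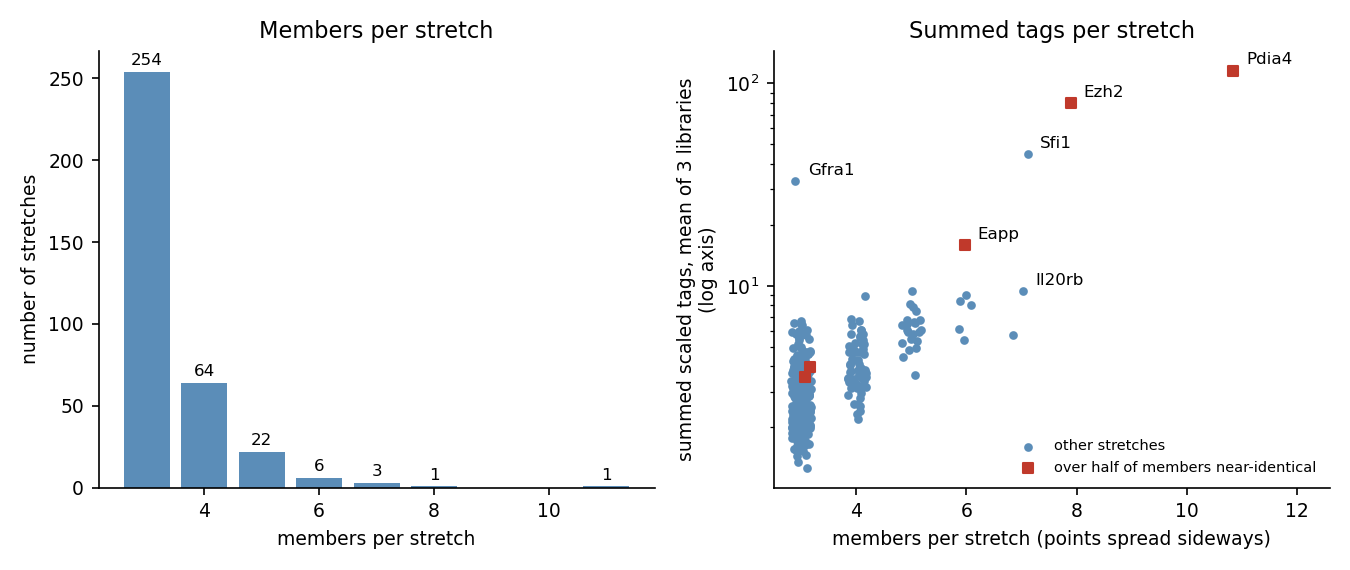
Left, number of stretches (vertical axis) by members per stretch (horizontal axis). Right, summed scaled tags of each stretch as the mean of the 3 libraries (log axis) against members per stretch, with red squares for stretches in which most members were near-identical copies of one another. The stretches beside Pdia4, Ezh2, Sfi1, Gfra1 and Eapp stand above the rest.

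A few stretches held a large share of the signal. The 5 strongest, those beside Pdia4, Ezh2, Sfi1, Gfra1 and Eapp, were singled out after their values were seen. They held 18.5% of all tags at member summits in WT, 19.6% in KO1 and 17.8% in KO2. The median stretch summed to 57, 32 and 61 tags in these libraries, and the strongest stretch outside the 5 summed to 168, 112 and 182 tags. Within a stretch the strongest member exceeded the weakest by a median of 2.43-fold, 2.40-fold and 2.67-fold. The median member had 16, 9 and 17 tags, so counting error also enters these ratios, and its part was not tested.

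The pair of stretches with the most members consisted largely of copies of one sequence. On chromosome 6 the stretch chr6:47739739-47789066 held 11 members, with Pdia4, a protein disulfide isomerase of the endoplasmic reticulum, as its nearest gene at 49027 bases. The stretch chr6:47654866-47686397 held 8 members and lay 75602 bases from the start of Ezh2, the methyltransferase of Polycomb repressive complex PRC2. The Ezh2 stretch contained the annotated 4.5S RNA gene Rn4.5s (chr6:47654921-47655094), a small rodent RNA gene of 174 bases. The identical 174 bases were found at every one of its 8 members, in a search that reached somewhat past the member's edges. The members followed each other at a median spacing of 4331 bases. The window printed for Ezh2 was found without a mismatch in the 7 other members of its stretch and at 8 of 11 members of the Pdia4 stretch. At the member chr6:47767712-47768172 the match (chr6:47767677-47767877) began before the member's first base. Reads from such copies cannot be assigned to one of them, so the tags of single copies are uncertain. Tags of the 8 members beside Ezh2 were alike, 122 to 150 in WT, 100 to 152 in KO1 and 149 to 179 in KO2. In the Pdia4 stretch the 8 members with the window had 124 to 220 tags in WT, 124 to 194 in KO1 and 196 to 344 in KO2. Its other 3 members had 10 to 25 tags in WT, and 2 of these overlapped the Y RNA genes Rny1 and Rny3, small noncoding RNAs transcribed by RNA polymerase III.

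The stretch beside Eapp, a protein that binds E2F factors, was of the same kind. At chr12:54709756-54739199 each of its 6 members held 1 annotated small nuclear RNA gene of 164 bases, and the window printed for Eapp matched the other 5 at 84.6% to 100% of its bases. The 6 members had 26 to 42 tags in WT, 21 to 39 in KO1 and 45 to 69 in KO2. Near-identical copies, defined as members that shared at least 20% of their words of 31 bases with another member of the stretch, numbered 34 of 1204 members (2.82%; 95% Wilson interval, 2.03 to 3.92%). Among the 2334 regions in pairs, 17 (0.728%; 0.455 to 1.16%) were copies by the same measure. These 34 members lay in 9 stretches. Words of 31 bases and the small RNA genes below were examined after the values were seen.

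Small RNA genes were more frequent in members than in the other shared distal regions. A tRNA gene lay in 16 members (1.33%; 95% Wilson interval, 0.820 to 2.15%) and in 52 others (0.536%; 0.409 to 0.702%). A small nuclear RNA gene lay in 16 members (1.33%; 0.820 to 2.15%) and in 15 others (0.155%; 0.0937 to 0.255%). Both pairs of intervals were apart, although neighbouring copies are not independent and the intervals cover counting error only. The tRNA genes were gathered in stretches beside Abt1 with 10, Trim27 with 9, and Hfe2, Fcgr4 and Cfap126 with 5 each. These counts include genes in the gaps between members, and 7, 6, 4, 4 and 5 lay in members, in the same order. Small nuclear RNA genes stood 4 in the stretch beside Mreg and 3 in that beside Arl4d. In all, 17 of 351 stretches contained a tRNA, small nuclear RNA, 4.5S RNA or Y RNA gene.

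Of the strongest stretches, 2 were carried by 1 member or by a high surrounding level. The stretch at chr11:3123728-3177917 overlapped Sfi1, a centrosomal protein, and had 7 members. Its first member had 549 tags in WT, 249 in KO1 and 443 in KO2. The other 6 had 50 to 158, 13 to 25 and 26 to 107 tags. The local background, which is the tag number that the peak caller expected from the surrounding DNA, reached 44.5 in this stretch in WT, against a median of 2.36 over all members. The stretch chr19:58094923-58113599 lay in an intron of Atrnl1, with Gfra1, a co-receptor for the growth factor GDNF, as its nearest gene at 350205 bases. The third member (chr19:58113275-58113599) had 1047, 180 and 253 tags, and 73.2% of its bases were soft-masked repeat. The first member had 7, 7 and 10 tags and the second 18, 20 and 37.

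The remaining stretches with the most members had no such copies. The stretch at chr9:100445690-100488993, 43304 bases long, overlapped Il20rb, a subunit of the receptors for interleukins of the IL-10 family that act on keratinocytes, and had 7 members. Their sums were 168 tags in WT, 90 in KO1 and 168 in KO2, and its strongest member, printed above, had 57, 17 and 48 tags. The stretch beside Sptssa, a small subunit of serine palmitoyltransferase, also had 7 members but 102, 57 and 99 tags in sum. Of the 7 members each, 5 beside Il20rb, 1 beside Sptssa and 2 beside Sfi1 had a q-value under 0.01 in every library. The 4 others of the 10 with the most members lay beside Bbox1, an enzyme of carnitine synthesis, Fancc of the Fanconi anaemia pathway, the kinase gene Nuak1, and Phlda3, a p53 target that restrains Akt. Their sums were 103, 112 and 168 tags for Bbox1. They were 127, 93 and 150 for Fancc, 151, 84 and 123 for Nuak1, and 127, 50 and 109 for Phlda3. The start sites of Fancc and Nuak1 lay 175600 and 200285 bases from the stretch centres, whereas the Phlda3 start lay 5339 bases from the centre of its own.

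**Figure D2:**
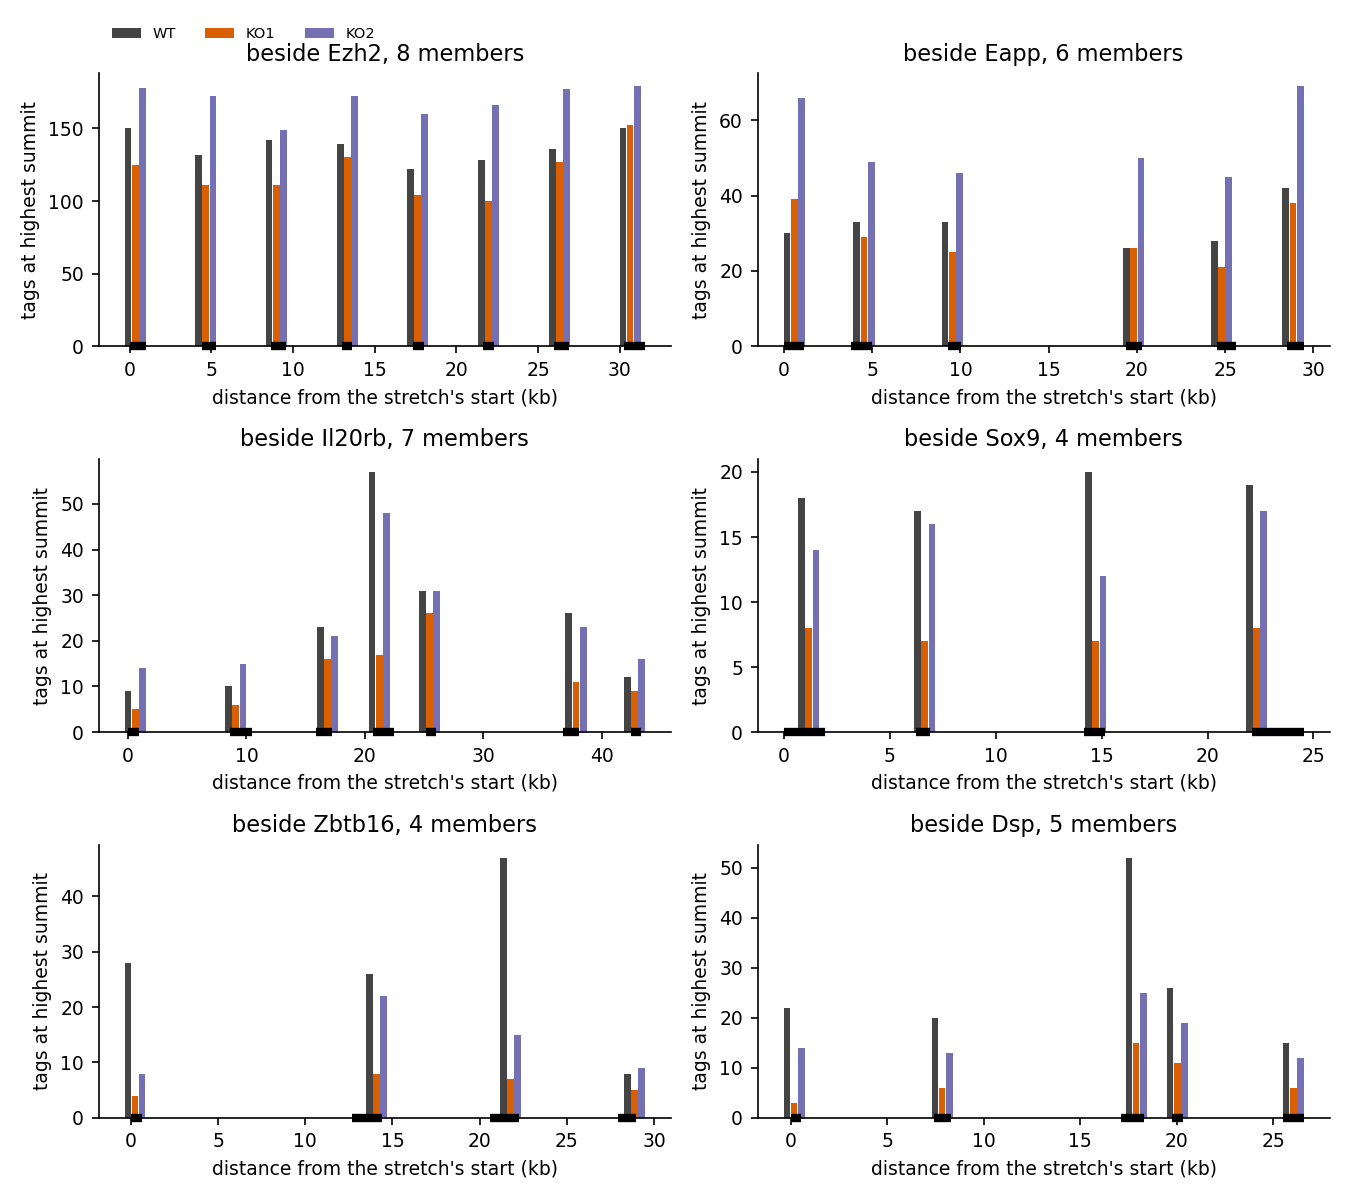
Tags at the highest summit of each member (vertical axis, each panel with its own scale) against distance from the start of the stretch in kb (horizontal axis) for 6 stretches, with bars for the 3 libraries side by side and black marks for the members. Bars beside Ezh2 are nearly level (122 to 150 tags in WT), and those beside Zbtb16 are highest in WT at 3 of 4 members.

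Stem cell and bulge genes followed. Transcription factors of the HFSC programme numbered 16 in the list used, and 4 of them were the nearest gene of a stretch, namely Sox9, Nfatc1, Foxc1 and Zbtb16. Over all 20780 autosomal protein-coding genes, 339 (1.63%) were the nearest gene of a stretch. The list was chosen with results of these data known, and 15 of its 16 genes were the nearest gene of at least 1 shared distal region, against 24.6% of all genes. The 12 others, such as Lhx2, Nfib and Runx1, were not nearest to a stretch. Nfib, with 15 shared distal regions of its own, lay 564896 bases from the nearest stretch, and Runx1 lay 240955 bases away. The count of 4 fell to 1, Sox9, with peaks at a q-value under 0.01, and rose to 9 with gaps up to 25000 bases.

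Sox9, the transcription factor that keeps HFSC identity, had 17 shared distal regions nearest to it, of which 4 formed the stretch chr11:112902414-112926954. The stretch was intergenic, and its centre lay 132460 bases from the start of the gene. Its members had 18, 17, 20 and 19 tags in WT, 8, 7, 7 and 8 in KO1, and 14, 16, 12 and 17 in KO2. Heights within a library were thus alike, without a leading member. All 4 members had a q-value under 0.01 in every library, against 2 of 4 beside Zbtb16, 2 of 5 beside Foxc1 and 4 of 5 beside Nfatc1. Zbtb16, a BTB zinc finger repressor, had an intronic stretch at chr9:48723508-48752449 with 4 members. They had 28, 26, 47 and 8 tags in WT, 4, 8, 7 and 5 in KO1, and 8, 22, 15 and 9 in KO2.

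Foxc1, a factor that holds HFSCs in quiescence, had an intergenic stretch of 5 members at chr13:31774458-31801442, with an edge 5190 bases from its start site. Its members summed to 64 tags in WT, 40 in KO1 and 56 in KO2. Nfatc1, the calcium-responsive factor of quiescent bulge cells, had 5 members on chromosome 18 that summed to 102, 47 and 97 tags. Over these 4 stretches, which have 4 or 5 members each, sums ran from 64 to 109 tags in WT, 24 to 47 in KO1 and 54 to 97 in KO2. The median over all stretches, most of which have 3 members, was 57, 32 and 61 tags, so the sums in KO1 and KO2 lay on both sides of it.

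Among 18 bulge and upper follicle markers, 4 were the nearest gene of a stretch, and each stretch had 3 members. Of all genes, 1.63% were nearest to a stretch. At least 1 shared distal region had its nearest gene in 15 of the 18 markers, against 24.6% of all genes. Col17a1 encodes the hemidesmosomal collagen that anchors HFSCs, and Itga6 encodes CD49f, an integrin used in the sort. Dkk3 is a secreted member of the Dickkopf family, and Cxcl14 is a chemokine. The Col17a1 stretch at chr19:47697035-47715150 had 71 tags in WT, 25 in KO1 and 36 in KO2, and the third member held an annotated small nuclear RNA gene, Gm24805. The Itga6 stretch at chr2:71801766-71812948 lay within the gene and had 52, 17 and 39 tags. Sums were 53, 26 and 38 tags for Cxcl14 and 39, 28 and 66 tags for Dkk3. Krt5, Krt14 and Krt15, which encode keratins of basal and bulge cells, had a shared region at their start sites and lay more than 100000 bases from any stretch.

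Epidermal lineage factors gave 4 of 18, namely Trp63 with 4 members and Grhl1, Grhl2 and Barx2 with 3 each. Of these 18, 14 were the nearest gene of at least 1 shared distal region, against 24.6% of all genes. Trp63 encodes p63, the master factor of stratified epithelium, and its intronic stretch at chr16:25825907-25850666 had 80 tags in WT, 32 in KO1 and 45 in KO2. Grhl1 and Grhl2 encode grainyhead-like factors of epithelial junctions, and both stretches overlapped their genes. Among 16 AP-1 and stress response factors, 4 had a stretch beside them: Klf6, Ets2, Myc and Bach2. Of these 16, 12 were the nearest gene of at least 1 shared distal region, against the same 24.6%. Over all genes, 1.63% were nearest to a stretch, the level to set beside the counts of both lists. Ets2, an ETS family factor, had 2 stretches of 3 members, with 83, 39 and 106 tags in one and 118, 27 and 73 in the other. Klf6, a zinc finger factor, had 122, 65 and 117 tags at 336999 bases. For Myc, the growth regulator, 17 shared distal regions lay nearest to the gene and 3 of them formed its stretch.

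Signalling and adhesion genes were also found beside stretches. Nearest to at least 1 shared distal region were 21 of 24 TGF-beta and BMP genes and 22 of 27 Wnt genes. So were 24 of 27 matrix and adhesion genes, against 24.6% of all genes, of which 1.63% were nearest to a stretch. In the TGF-beta and BMP pathway, 4 of 24 genes were nearest to one: the ligand Bmp6, the receptor Tgfbr2, the inhibitory Smad7 and the Smad corepressor Tgif1. The Bmp6 stretch (chr13:38309957-38331549) had 4 members with 52 tags in WT, 28 in KO1 and 64 in KO2, and the Tgif1 stretch, which lay within the neighbouring gene Dlgap1, had 98, 73 and 135. In the Wnt pathway the count was 3 of 27, with the co-receptor Lrp5 and the secreted inhibitors Sfrp1 and Wif1. Matrix and adhesion genes gave 4 of 27. Dsp, the desmosomal plaque protein desmoplakin, had 5 members at chr13:38145025-38171603, which summed to 135, 41 and 83 tags. Itgb6, an integrin that activates latent TGF-beta, had 4 members with 80, 46 and 88 tags, and Dsg3, a desmosomal cadherin, and Ltbp1, which stores latent TGF-beta, had 3 each.

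Other lists had no stretch beside them. None of 12 epidermal differentiation genes, 8 Msx and Dlx homeobox genes, 9 melanocyte, 10 leukocyte and 12 fibroblast and endothelial genes was the nearest gene of a stretch, and at the all-gene share of 1.63% each of these short lists could hold none. Msx2 itself had a shared region at its start site and lay 392873 bases from the nearest stretch. Of the 339 genes beside a stretch, 259 (76.4%) had a shared region at their start site. The share was 57.6% of 4992 genes beside a shared distal region outside the stretches and 43.7% of all genes. The 4992 included 244 genes that were also beside a stretch, so the 2 sets overlap.

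**Figure D3:**
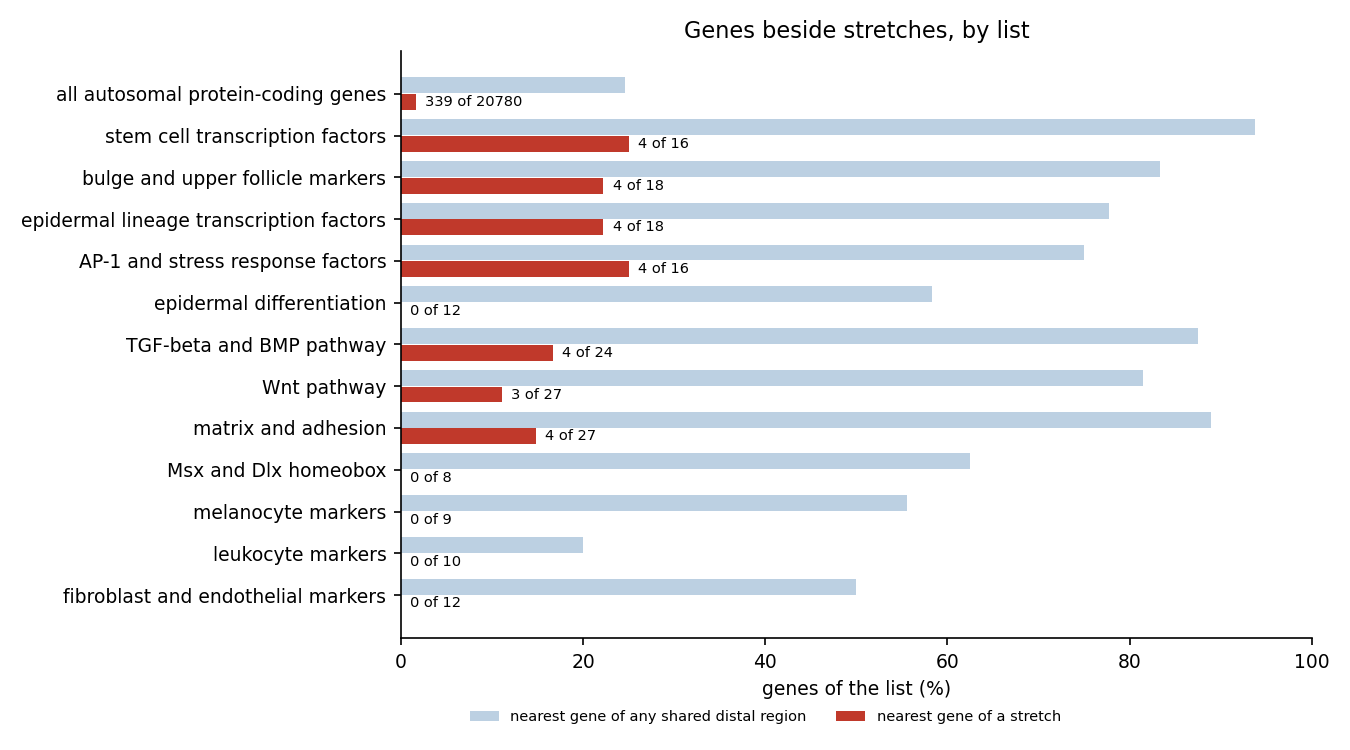
Percent of the genes of each list (horizontal axis) that were the nearest gene of a stretch (red) or of any shared distal region (light blue). Lists of stem cell factors and of AP-1 and stress factors reach 25.0% in red, and all autosomal protein-coding genes stand at 1.63% in red and 24.6% in light blue.

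Members and the other shared distal regions were compared in measures that the rule did not use directly, and some were close while others were apart. The highest summit of a region had a median of 16 tags in members and 13 in the others in WT, 9 and 7 in KO1, and 17 and 15 in KO2. Local background was higher too, with medians of 2.36 and 1.90 tags in WT, 1.09 and 0.722 in KO1, and 2.22 and 1.53 in KO2. It is taken from surrounding DNA, where members have neighbouring peaks by the rule. Background and the fold enrichment computed from it are therefore not independent of the rule. Fold enrichment over that background had medians of 4.62 and 4.56, 4.51 and 4.69, and 5.42 and 6.06 in the same order, so members exceeded the others in tags but not in enrichment in both KO libraries. The width of the merged region (median, 1039 against 1049 bases), G+C content around the summit (49.8% against 49.3%) and median repeat share (10.9% against 10.7%) were close. Regions with over 50% repeat were fewer among members, at 1.16% (95% Wilson interval, 0.694 to 1.94%) against 2.96% (2.64 to 3.31%). Introns held 45.4% of members and 43.1% of the others, and exons 1.58% (1.01 to 2.45%) and 2.94% (2.62 to 3.29%), with these last intervals apart. A q-value under 0.01 in every library was found for 57.5% of members and 56.1% of the others.

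Motif words were at similar levels in members and in the other shared distal regions. The AP-1 word lay in the window of 13.5% of members (95% Wilson interval, 11.6 to 15.5%) and of 15.2% of the others (14.5 to 15.9%), and in 8.65% of all 149028 merged regions. SOX words were found in 12.7% and 11.9%, beside 11.7% of all merged regions. For MSX, the family of the deleted factor, searched as CAATTA, the shares were 8.31% and 9.34%, beside 7.89% of all. RUNX was at 6.23% and 5.30% (4.47% of all), and KLF at 9.39% and 9.98% (6.80% of all). All 8 members beside Ezh2 and most of the 11 beside Pdia4 held the RUNX word, largely as copies of the same sequence. The RUNX share without these copies was not computed, so no direction can be given for it. For LHX, searched as TAATTA to represent the family of Lhx2, the shares were 6.98% and 7.93% (5.57% of all). This word differs from the MSX word at its first base only, and matches of the pair can overlap. The GRHL word AACCNGTT of the grainyhead-like factors was at 3.90% and 3.12% (1.958% of all), and TEAD, searched as ACATTCC, at 5.15% and 5.77% (3.35% of all). The intervals of members and others overlapped for all 15 words searched. The overlap was narrow for the spaced word of p63, which lay in 0.415% of members (0.178 to 0.968%) and 1.08% of the others (0.894 to 1.31%). FOX, GATA and TCF/LEF words, searched as TGTTTAC for FOX, lay in 3.57%, 2.99% and 2.82% of members and in 3.29%, 3.43% and 3.10% of the others, beside 2.87%, 3.02% and 3.29% of all. The GATA word was AGATAAG, and for TCF/LEF the letters were ATCAAAG. The spaced words of CTCF and NFI lay in 0.831% and 0.0831% of members and in 1.26% and 0.0412% of the others. Shared regions near start sites differed more from both sets, with AP-1 in 2.91%, KLF in 17.6% and the ETS word CCGGAAG in 13.9%, which lay in 1.495% of members, 1.59% of the others and 1.78% of all. At least 1 member with an AP-1 word was present in 133 stretches (37.9%), and 1 stretch had it in every member. The AP-1 difference between members and others changed sign when gaps up to 25000 bases were joined and when KO1 was left out.

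**Figure D4:**
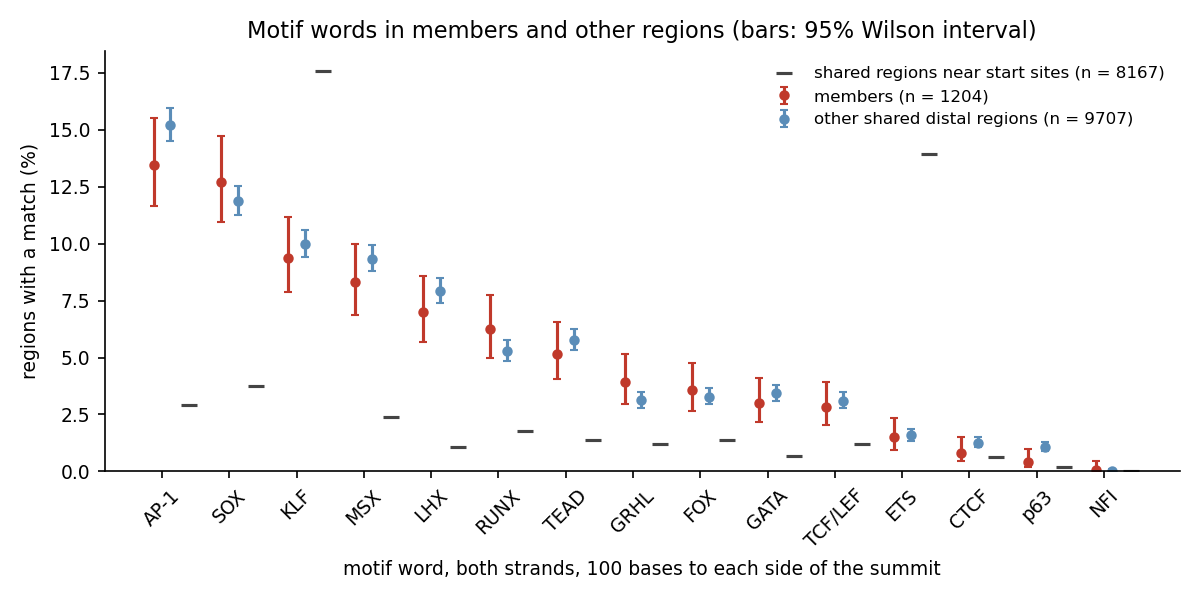
Percent of regions with each motif word within 100 bases of the summit (vertical axis) for the 1204 members and 9707 other shared distal regions, with 95% Wilson intervals as bars, and for 8167 shared regions near start sites as dashes. Members and other distal regions lie close for every word (AP-1, 13.5% and 15.2%), and ETS and KLF words are more frequent near start sites.

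The question of the study design was how loss of Msx2 bears on open chromatin, and for the members this can be described only. Both KO ratios share the 1 WT library. The log2 ratio of mean KO to WT scaled tags had a median of 0.14 over members and 0.10 over the other shared distal regions. For single libraries the medians over members were 0.19 for KO1 and 0.00 for KO2, whereas the log2 ratio between the 2 KO libraries had a median of 0.16. The median depended on the scale. It was 1.16 after scaling by each library's commonest background (1.10 over all shared regions) and -0.011 for fold enrichment, and no overall direction can be given.

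Members beyond a 2-fold difference were close in frequency to shared distal regions in general, with 1 class below that level. The median member had 9 tags in KO1, so calls of single members carry a large counting error. Of 10909 shared distal regions with tags in every library, 7.79% were more than 2-fold higher in both KO libraries than in WT, and 87 of 1204 members were (7.23%; 95% Wilson interval, 5.90 to 8.83%). Lower in both were 5.60% of all and 45 members (3.74%; 2.80 to 4.96%). The same fold set KO1 apart from the other two libraries as higher in 2.79% of all and 33 members (2.74%), and as lower in 1.15% of all and 14 members (1.16%). It set KO2 apart as higher in 0.990% of all and 12 members (0.997%), and as lower in 3.65% of all and 41 members (3.41%). Members lay below the level of all shared distal regions only in the class lower in both KO libraries, and the other 5 classes held that level within their counting intervals. These calls depended on the scale. With tags scaled by the commonest background, 42.9% of all and 537 members (44.6%; 41.8 to 47.4%) were higher in both, and 0.440% of all and 2 members (0.166%; 0.0456 to 0.604%) were lower in both, so members were no longer below the level of all. Across members, tag numbers had a Spearman rho of 0.51 between WT and KO1, 0.54 between WT and KO2 and 0.74 between the 2 KO libraries, which also share a batch by their labels (n = 1204 regions). Across the other shared distal regions, rho was 0.43, 0.48 and 0.72 in the same order, so the pattern was not particular to members.

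Summed over a stretch, 13 stretches were more than 2-fold higher in both KO libraries than in WT and 4 were more than 2-fold lower. With tags scaled by the commonest background, 165 were higher and 0 lower, so the balance of the counts rests on the scale. The SD over the 351 stretches of the log2 ratio was 0.61 for KO1 over WT, 0.58 for KO2 over WT and 0.36 between the KO libraries. The stretches below were chosen for these ratios, so their values are a description.

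The stretch with the highest ratio had 3 members and Mocs1, of molybdenum cofactor synthesis, as its nearest gene. It lay at chr17:49212665-49232539, 205760 bases from that start. Its members had 7, 9 and 6 tags in WT, 16, 14 and 14 in KO1 and 17, 25 and 33 in KO2. Every member was thus higher in both KO libraries before scaling, and the sums were 22 tags (95% Poisson interval, 13.8 to 33.3), 44 (32.0 to 59.1) and 75 (59.0 to 94.0). The log2 ratios of scaled sums were 2.00 and 1.69. An intronic stretch of Dpyd, an enzyme of pyrimidine breakdown, summed to 20, 29 and 63 tags, with log2 ratios of 1.54 and 1.58. An intronic stretch of Ptprk, a receptor tyrosine phosphatase at cell contacts, summed to 37, 53 and 103 tags, with log2 ratios of 1.52 and 1.40, and 1 of its 3 members carried most of them with 26, 40 and 75 tags.

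At the other end stood the Gfra1 stretch, with 1072, 207 and 300 tags and log2 ratios of -1.37 and -1.92. It rested on the repeat-rich member described above, as its other 2 members had more tags in KO2 than in WT. The stretch beside Zbtb16 summed to 109 tags (95% Poisson interval, 89.5 to 131) in WT, 24 (15.4 to 35.7) in KO1 and 54 (40.6 to 70.5) in KO2, with log2 ratios of -1.18 and -1.09. The first and the third member were more than 2-fold lower in both by scaled tags, and the fourth was near level in raw tags (8, 5 and 9). The stretch beside Nr3c1, the glucocorticoid receptor, on chromosome 18 had 67, 15 and 32 tags and log2 ratios of -1.16 and -1.14. With the commonest background as the scale, the log2 ratios were -0.31 and 0.12 for Zbtb16 and -0.29 and 0.071 for Nr3c1, so both fell short of a 2-fold difference and turned in KO2. Those of Gfra1 were then -0.50 and -0.70, whereas Mocs1 (2.87 and 2.91), Dpyd (2.40 and 2.79) and Ptprk (2.39 and 2.61) remained over 2-fold higher. For Sox9 the log2 ratios were -0.30 and -0.40, and for Foxc1 they were 0.32 and -0.27, inside the SD over all stretches. On the background scale they were 0.57 and 0.81 for Sox9 and 1.19 and 0.94 for Foxc1.

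**Figure D5:**
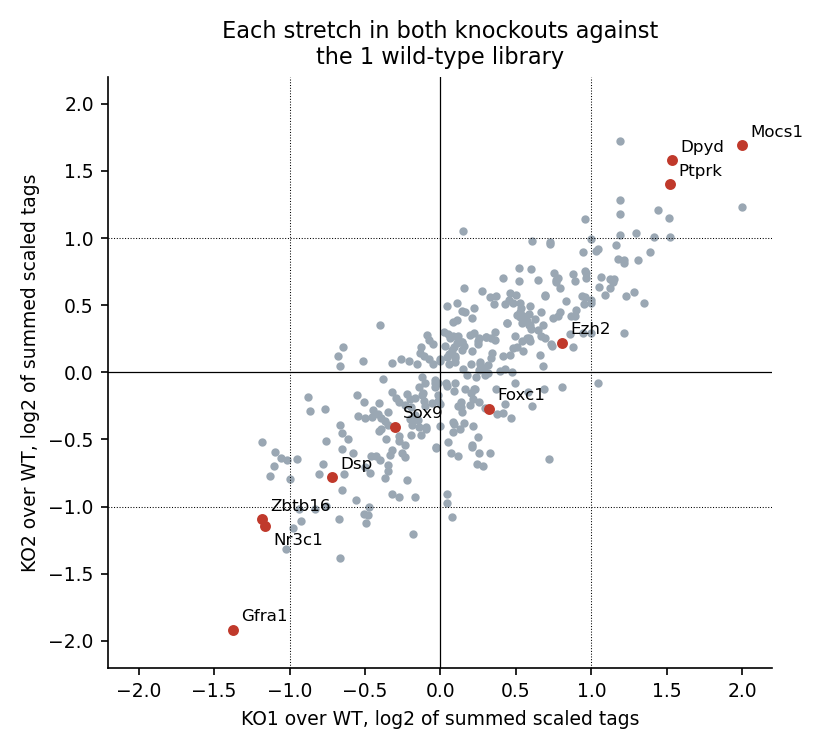
Log2 ratio of summed scaled tags for each of the 351 stretches, KO1 over WT (horizontal axis) against KO2 over WT (vertical axis). Dotted lines mark a 2-fold difference, both axes share the 1 WT library, and Mocs1 (2.00 and 1.69) and Gfra1 (-1.37 and -1.92) lie at the ends.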

How the data were processed

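Omni-ATAC-seq peak lists of sorted mouse HFSCs were used, 1 of Msx2-WT and 2 of Msx2-KO, called by the authors per library and not pooled. Per the study's methods and labels, reads were trimmed with Trimmomatic, aligned to GRCm38/mm10 with BWA-MEM, freed of mitochondrial reads and passed to MACS2 without a shifting model (extension 200 bases), with duplicates kept, and Partek was used. A q-value limit of 0.01 was named, but the lists as deposited reach down to a p-value of 0.01. The deposited columns held intervals, a score, the fold enrichment (a ratio of tags plus 1 to local background plus 1), -log10 p-values and -log10 q-values. No read files or blacklist were used here, and the labels did not say whether Tn5 cut sites were shifted.

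Tag numbers and local background were solved from fold enrichment and p (relative tolerance 2e-06), and 100% of simulated tag numbers and of planted stretches were recovered in a test. Python 3.11.15, pandas 2.3.3, numpy 2.4.6, scipy 1.17.1 and pysam 0.24.0 were used. Copies were found by words of 31 bases. Protein-coding start sites were those of the GRCm38 annotation. Intervals are 95% Wilson or exact Poisson intervals and cover counting error only, since kept duplicates are not independent molecules. Members and gene lists were chosen with earlier results of these data known. Stretches were named if they were among the 10 with the most members, beside a stem cell, bulge or other list gene (up to 4 a list), or among the 3 with the highest or the lowest Msx2-KO to Msx2-WT ratio, ranked in the Msx2-KO library nearer to Msx2-WT with both on one side.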

Additional observations from a re-analysis of the deposited data

How the results depend on the processing

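The number of stretches, 351 with 1204 members and 11.03% of shared distal regions, depended on the rule. It was 87 with 297 members (4.84%) for peaks with a q-value under 0.01, and all 87 overlapped one of the 351. It was 59 with 192 members (1.76%) for gaps up to 5000 bases, 752 with 2807 (25.7%) for gaps up to 25000, and 97 with 442 (4.05%) for at least 4 members. Counting only bases covered in every library gave 12.7%. With 1 library left out in turn there were 426 to 1110 stretches, 1462 to 3988 members and 12.3 to 18.8% of shared distal regions, the most without KO1, the shallowest library. The AP-1 difference between members and other shared distal regions, -1.75 percentage points, was -4.68 for gaps up to 5000 bases and changed sign to 0.12 for gaps up to 25000. It ran from -0.78 to 0.97 over the leave-outs, positive without KO1. The median log2 KO to WT ratio over members, 0.14, was 1.16 when scaled by the commonest background and -0.011 for fold enrichment, and 0.00 and 0.19 with either KO library left out. Stem cell transcription factor genes beside a stretch, 4, numbered 1 for q under 0.01 and for gaps up to 5000 bases, 9 for gaps up to 25000, and 5 to 8 over the leave-outs. The causes of these changes were not tested. Stretches with near-identical copies were left out in an alternative chosen after seeing the data, which gave 342 stretches with 1159 members, an AP-1 difference of -1.40 and a median ratio of 0.11. Also chosen after seeing the data, scaling by the commonest background gave 165 stretches over 2-fold higher and 0 over 2-fold lower in both KO libraries, in place of 13 and 4. Depth limited single members, with a median of 9 tags in KO1. No paired analysis was possible because WT had 1 library and no test was made.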

Other observations

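Inside the stretches there were also distal regions without a peak in every library. Of these, 117 (39.7%) had a peak in WT alone, against 49.9% of such regions elsewhere, and 73 (24.7%) in KO2 alone, against 30.6%. Regions that lacked a peak in KO1 alone, the library with the fewest summits, numbered 56 (18.98%, against 8.37%). Regions with a peak in both KO libraries and none in WT numbered 17 (5.76%, against 3.23%).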
